A study of Mus musculus with 24 samples.

Results

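Late relapse KP tumours were set against 2nd relapse KP tumours, 3 libraries against 3, out of 24 libraries in the series. KP is a mouse lung cancer line from a genetically engineered model whose alleles include p53 flox/flox, for loss of p53. It was injected into syngeneic mice, and tumours were taken on day 15. Live cells negative for CD45, the surface protein of white blood cells encoded by Ptprc, were sorted, so the RNA came from tumour cells together with any host cell that lacks CD45. The series describes the relapsed tumours as relapsed after immune checkpoint blockade (ICB). The labels do not say what sets a late relapse apart from a 2nd one, and they give the treatment of both groups as none. The other KP groups, with 3 libraries each, were 1st relapse, chronic interferon gamma (IFNG), which had low-level chronic IFNG exposure, and parental tumours. All carry the same alleles. The submitters call the libraries biological replicates without stating separate animals, so p-values here measure the spread between these samples.

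A tumour under immune attack can change in several known ways. IFNG acts through its receptor and the kinases Jak1 and Jak2 to induce major histocompatibility complex (MHC) class I molecules, which display peptides to CD8 T cells. Carcinoma cells can also move between an epithelial state, held together by E-cadherin, desmosomes and keratins on a laminin basement membrane, and a mesenchymal state rich in interstitial matrix and its receptors.

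Stranded total RNA was sequenced to an estimated 20.6 to 32.9 M fragments in the Late relapse libraries and 22.3 to 25.7 M in the 2nd relapse libraries. The table is named as variance-stabilised, a log2-type scale that compresses differences at low counts. Levels are given as normalised counts calculated back from those values, and differences as Late relapse minus 2nd relapse on the deposited log2 scale. Levels of different genes are not comparable, because gene length is not taken out. Epithelial markers were abundant in both groups: Krt18 had 51810.1 ± 2555 in Late relapse KP and 67286 ± 2578 in 2nd relapse KP (SD, n = 3 each). Ptprc had 38.1 ± 10.4 in Late relapse KP and 28.4 ± 13.7 in 2nd relapse KP, and the lists of neutrophil, T and NK cell and B cell markers held no tested gene. Genes were tested where the mean of at least 1 KP group was 1 log2 unit or more above the lowest deposited value, which corresponds to 144 normalised counts. Lung-lineage Nkx2-1 had 8 ± 2.46 in Late relapse KP and 5.88 ± 3.2 in 2nd relapse KP, so the lung label is not supported by that marker in either group. Trp53 had 149.9, 147 and 137 in Late relapse KP and 116, 116 and 85.4 in 2nd relapse KP. Those reads do not show whether the floxed exons are present.

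Of 11193 genes tested, 6148 (54.9%) were called different at a Benjamini-Hochberg adjusted p below 0.05 by limma, a linear model that shares information on variance across genes, fitted to all 15 KP libraries. Late relapse tumours were higher in 2819 genes (25.2%) and lower in 3329 (29.7%). With 54.9% of genes called, a call alone sets no gene apart, and sizes carry more of the description. The median absolute log2 difference was 0.17, and 342 called genes differed by 1 log2 unit or more. Of these, 201 were higher (1.8% of genes tested) and 141 lower (1.26%). All 3 values of one group lay above all 3 of the other in 6855 genes (61.2%).

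**Figure D1:**
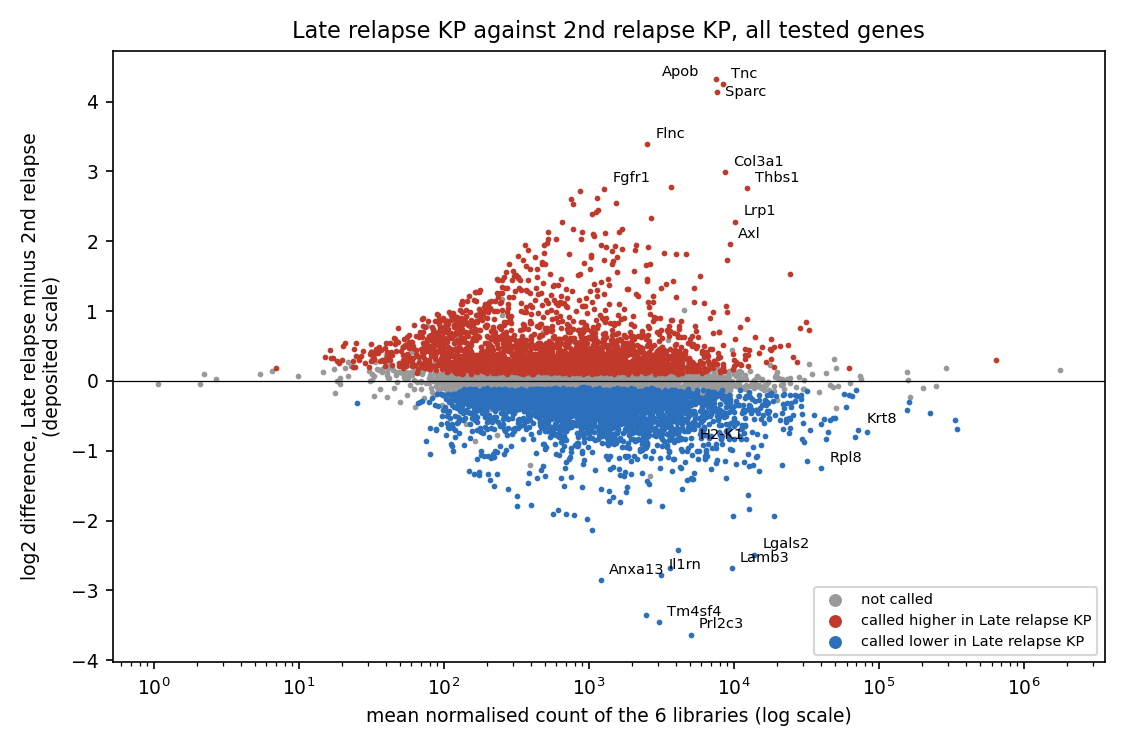
Log2 difference between Late relapse and 2nd relapse KP tumours against the mean normalised count of the 6 libraries (log axis), 1 point per tested gene, coloured by limma call. Apob (4.33), Tnc (4.25) and Sparc (4.14) lie at the top, and Prl2c3 (-3.63) and Tm4sf4 (-3.45) at the bottom.

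Genes of the interstitial matrix and of mesenchymal cells were among the most strongly raised in Late relapse tumours. Tnc (ENSMUSG00000028364, GRCm38 chr4:63959785-64047015), which encodes the wound and tumour-stroma glycoprotein tenascin C, had normalised counts of 14918, 14618 and 19928 in Late relapse libraries and 318, 428 and 482 in 2nd relapse libraries. Every Late relapse library was above every 2nd relapse library, and the means differed 40.3-fold. The log2 difference was 4.25 ± 0.17 (SE), with a limma adjusted p of 9.8e-11. Sparc (chr11:55394500-55423183), a collagen-binding matricellular protein, had 13717, 13161 and 17739.6 in Late relapse tumours, against 344, 404 and 419 in 2nd relapse tumours, which is a 38.2-fold difference of means (limma adjusted p = 3.04e-12). Thbs1, the matricellular thrombospondin 1, had 21116, 22728 and 22084 in Late relapse KP and 2479, 3042 and 2825 in 2nd relapse KP, again with no overlap between the groups.

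Flnc, a filamin that cross-links actin, had 5879, 4354 and 4678 in Late relapse KP and 84.5, 123 and 116 in 2nd relapse KP. Col8a1, a short-chain network collagen, had 2077, 2235 and 2393 in Late relapse libraries and 96.9, 89.5 and 102 in 2nd relapse libraries. Thbs2 was raised less evenly, with 3299, 7722 and 3621 in Late relapse tumours, against 588, 549.5 and 437 in 2nd relapse tumours, the second Late relapse library standing above the other two. The list of mesenchymal and epithelial-mesenchymal transition genes held 22 higher and 2 lower of 31 tested members (of 38 listed), with a median log2 difference of 0.57, against a median of -0.01 over all tested genes. S100a4, a calcium-binding protein of motile mesenchymal cells, rose by 1.81 log2 units and the receptor kinase Axl by 1.96. Vim, the mesenchymal intermediate filament protein vimentin, was high in both groups and was not called, with 73713, 75328 and 78076 in Late relapse KP and 70057, 72037 and 74915 in 2nd relapse KP (limma adjusted p = 0.36). After quantile normalisation Vim was called higher, at 0.29 (adjusted p = 0.00206, the lowest of a range reaching 0.617 over the alternatives).

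Fibrillar collagens were also higher, but they did not move evenly across the 3 Late relapse libraries. Col3a1 had normalised counts of 5779.9, 7928 and 35506 in Late relapse KP and 809, 1220.2 and 1161 in 2nd relapse KP. Col1a2 had 3728, 4080.3 and 13125 in Late relapse libraries and 292, 598 and 523 in 2nd relapse libraries. Col1a1 had 1593, 1636 and 6176 in Late relapse tumours, against 217, 256 and 246 in 2nd relapse tumours. The third Late relapse library held 5.18, 3.36 and 3.83 times the mean of the other two for Col3a1, Col1a2 and Col1a1, and all 3 genes stayed above the 2nd relapse range in every library. Without that library the log2 difference of Col3a1 was 2.22, against 2.99 with all libraries, and that of Col1a1 was 1.63, against 2.18. The collagen and cross-linking list held 19 higher and 4 lower of 27 tested members (of 28 listed), with a median log2 difference of 1.00. Without the third Late relapse library the counts were 16 higher and 6 lower, with a median of 0.59.

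Fibroblast markers were higher too, and highest in the third Late relapse library. Dcn, the small proteoglycan decorin of fibroblasts, had 299.6, 447 and 988 in Late relapse tumours, against 26.6, 46 and 54 in 2nd relapse tumours. Pdgfra, a receptor for platelet-derived growth factor on fibroblasts, had 168, 185 and 439.8 in Late relapse libraries and 15.4, 46.3 and 57.5 in 2nd relapse libraries. The summed fibroblast list was 2049, 2228 and 4359 counts scaled to library size (CPM) in the Late relapse libraries, against 937, 1024 and 879.5 CPM in the 2nd relapse libraries. Its group means were 2878 CPM in Late relapse and 947 in 2nd relapse KP. They were 4781 in 1st relapse, 2604 in chronic IFNG and 2888 in parental KP, so the Late relapse mean was near the parental one and the 2nd relapse mean was the lowest. Of 19 listed markers 17 were tested, 13 were called higher and 0 lower, with a median of 0.75. Of the 17, 6 are also in the matrix or mesenchymal lists, and 10 were above the filter level in parental KP tumours. In bulk RNA more fibroblasts, more RNA per fibroblast and expression by the tumour cells cannot be told apart. The part of fibroblasts in the matrix result was not tested. Among the matrix and receptor genes, Thbs1, Col8a1, Fgfr1, Axl, Lrp1 and Flnc differed less. Their level in the third Late relapse library was 0.909 to 1.11 times the mean of the other two. Others lay outside that range. Tnc and Sparc were at 1.35 and 1.32 times that mean, Fbn1 and Postn at 2.38 and 3.62, and Ddr2 and Thbs2 at 0.797 and 0.657.

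**Figure D2:**
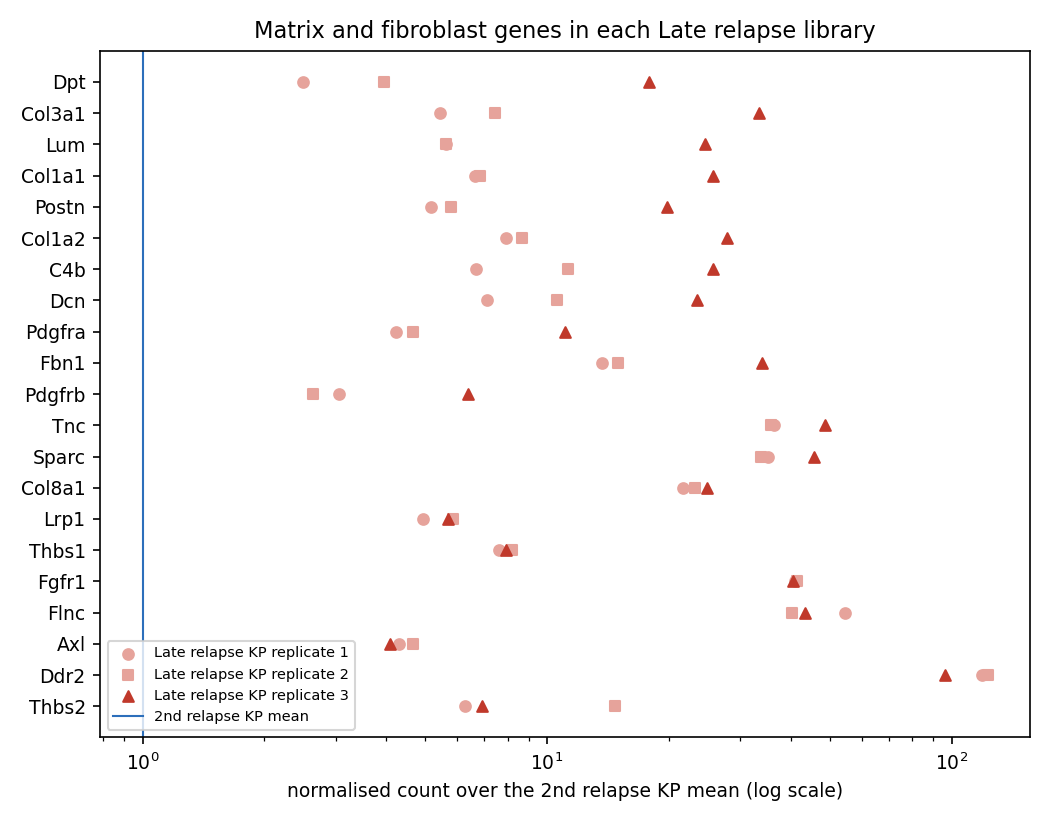
Normalised count of each Late relapse library divided by the mean of the 3 2nd relapse libraries (log axis), for matrix, receptor and fibroblast genes. Every point lies above 1. Replicate 3 stands apart for Dpt, Col3a1, Lum, Col1a1 and Postn and lies among the other two for Lrp1, Thbs1 and Flnc.

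Not every matrix gene was higher. Bgn, which encodes the small proteoglycan biglycan, had 355, 324 and 1498 in Late relapse KP and 5938, 6709 and 6884 in 2nd relapse KP, so all 3 Late relapse libraries were below the 2nd relapse range, and the third Late relapse library was again the highest of its group. Fbn1, the microfibril protein fibrillin 1, had 1938, 2118 and 4817 in Late relapse KP and 66.8, 206 and 152 in 2nd relapse KP. Postn, periostin, had 952, 1064 and 3648 in Late relapse tumours, against 123, 210.4 and 219 in 2nd relapse tumours. Fbn1 and Postn were both highest in the third Late relapse library. Ccn2, a matricellular target of TGF-beta and Hippo signalling, had 5761, 8480.2 and 9635 in Late relapse libraries and 2855, 2660.0 and 2781 in 2nd relapse libraries. The matrix protease and inhibitor list held 20 higher and 6 lower of 34 tested members (of 39 listed), with a median log2 difference of 0.36. Timp1, an inhibitor of matrix metalloproteinases, rose by 1.29, and the proteases Adam12 and Htra1 by 1.23 and 1.03. Serpinb2, an inhibitor of plasminogen activators, had 899.7, 635 and 637 in Late relapse libraries and 0.973, 4 and 4.68 in 2nd relapse libraries, with 2nd relapse values too low for a ratio to be useful.

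Single receptors for matrix and growth factors had large differences, although their lists went both ways. Fgfr1 (chr8:25513654-25575718), a receptor tyrosine kinase for fibroblast growth factors, had 2503, 2534 and 2473 in Late relapse KP and 77.7, 42.9 and 62 in 2nd relapse KP, a 41.1-fold difference of means with little spread among the Late relapse libraries (limma adjusted p = 8.14e-11). Ddr2, a receptor kinase for fibrillar collagen, had 1634, 1682 and 1322 in Late relapse libraries and 17.6, 13 and 10.5 in 2nd relapse libraries. In both receptors all Late relapse libraries lay far above the 2nd relapse range. Axl had 15201, 16474 and 14402 in Late relapse libraries and 3642, 3382 and 3553 in 2nd relapse libraries. Its ligand Gas6 had 132, 289 and 425 in Late relapse tumours, against 3.86, 12.5 and 1.15 in 2nd relapse tumours. Axl and Gas6 were likewise higher in every Late relapse library than in any 2nd relapse library. Lrp1, a large endocytic receptor for matrix ligands and proteases, had 15610.3, 18492 and 17959 in Late relapse KP and 3529, 3418 and 2520.2 in 2nd relapse KP. The receptor tyrosine kinase and ligand list as a whole was mixed, with 17 higher and 11 lower of 41 tested (of 57 listed, median 0.07), and Vegfa, the main vascular growth factor, fell by 0.84.

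Integrins, the matrix receptors, were split. Itgav and Itgb5, whose products pair as a vitronectin receptor, had log2 differences of 1.08 and 1.06, and the laminin receptor chain Itga7 had 1.47. Itgb3, another partner of Itgav, fell, with 1086, 1001 and 1276 in Late relapse KP and 3355, 3765 and 3524 in 2nd relapse KP. The integrin list held 7 higher and 3 lower of 13 tested (of 20 listed, median 0.74). With a stricter filter of 3 log2 units above the lowest value, 10 of those members were tested and their median was -0.10. Among TGF-beta and BMP genes there were 16 higher and 7 lower of 33 tested (of 36 listed, median 0.10). Inhba, the activin A subunit, rose by 1.21, the co-receptor Tgfbr3 by 1.26, and the induced matrix protein Tgfbi by 1.44. Id2, a BMP target that blocks basic helix-loop-helix factors, fell, with a log2 difference of -0.73.

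The Wnt list held 12 higher and 7 lower of 26 tested (of 41 listed, median 0.23). Wnt5a, a ligand of non-canonical Wnt signalling, had 2580.3, 2211 and 2814 in Late relapse tumours, against 365, 325 and 428 in 2nd relapse tumours. Fzd4, a Frizzled receptor, had 697, 679 and 622 in Late relapse libraries and 123, 132 and 119 in 2nd relapse libraries. Neither gene's groups overlapped. Prom1, a membrane protein of epithelial progenitors, had 3477, 4873 and 4702 in Late relapse tumours, against 795, 778 and 761 in 2nd relapse tumours. Rnf43, the ubiquitin ligase that removes Frizzled receptors, went the other way, with 182, 308 and 234 in Late relapse tumours, against 970.4, 1196 and 1236 in 2nd relapse tumours. Prom1 and Rnf43 were each separated between the groups in all libraries. In the Notch and Hippo list there were 12 higher and 5 lower of 27 tested (of 32 listed, median 0.08). The Notch ligand Jag2 had 96.1, 139 and 101 in Late relapse KP and 1522, 1494 and 1394 in 2nd relapse KP. Tead2, a DNA-binding partner of the Hippo effector Yap, had 1098, 1088 and 939.7 in Late relapse KP and 343, 223 and 220.3 in 2nd relapse KP. A pair of genes known from neurons was among the 15 highest. Map2, a microtubule-associated protein of dendrites, had 2057, 1927 and 2120.2 in Late relapse KP and 84.1, 66.4 and 103 in 2nd relapse KP. Sema5a, a semaphorin of axon guidance, had 2362, 2236 and 1829 in Late relapse KP and 112, 70.5 and 92.1 in 2nd relapse KP.

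Lamb3 and Lama3, which encode chains of the epithelial laminin that anchors hemidesmosomes, fell in Late relapse tumours. Lamb3 (chr1:193207699-193343878) had normalised counts of 2574, 2089.7 and 2020.0 in Late relapse libraries and 15541, 18408 and 17583 in 2nd relapse libraries, a 7.71-fold lower mean (log2 difference -2.68 ± 0.13 (SE), limma adjusted p = 9.38e-10). Lama3 had 2021, 1959 and 1975 in Late relapse tumours, against 6547, 7844 and 6133 in 2nd relapse tumours. For both chains the Late relapse libraries lay below the 2nd relapse range. The basement membrane list was otherwise split, with 9 higher and 11 lower of 20 tested (of 22 listed, median -0.30). Lamb3 lies on chromosome 1 and Lama3 on chromosome 18.

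Most tested keratins and 17 of 36 tested cell junction genes were lower in Late relapse tumours. The keratin list held 1 higher and 8 lower of 10 tested members (of 15 listed), with a median log2 difference of -0.54. Krt8, the main keratin of simple epithelium, had 55232, 53849.9 and 55827 in Late relapse tumours, against 85704, 87802 and 95452 in 2nd relapse tumours. Krt19 had 11556, 12574 and 14755 in Late relapse KP and 30254, 29628 and 31494 in 2nd relapse KP. Krt14, the keratin of basal cells, had 115, 116 and 131 in Late relapse tumours, against 906, 864 and 669.7 in 2nd relapse tumours. The keratin list summed to 5840 ± 175 CPM in Late relapse KP and 8268 ± 349 CPM in 2nd relapse KP (SD, n = 3 each). Krt14 and the fat-droplet gene Plin4, also lower, are in the list of skin, muscle and fat markers, which summed to 17.4 ± 2.06 CPM in Late relapse KP and 50.7 ± 6.36 CPM in 2nd relapse KP.

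Cdh1, which encodes E-cadherin, had 6212, 7665 and 7337 in Late relapse libraries and 15586, 17036 and 16748 in 2nd relapse libraries. The desmosomal plaque gene Dsp had 1121, 1884 and 1941 in Late relapse tumours, against 4246, 5037 and 4414 in 2nd relapse tumours. Both adhesion genes were lower in all 3 Late relapse libraries. The tight junction gene Ocln had 174, 235 and 226 in Late relapse KP and 782, 776 and 801 in 2nd relapse KP. The claudin gene Cldn7 had 68.5, 84.7 and 75.2 in Late relapse libraries and 480.4, 441 and 462 in 2nd relapse libraries. Both tight junction genes were lower in all 3 Late relapse libraries as well. Epcam, an epithelial adhesion molecule, differed in the opposite direction, with 1981, 2908 and 2907 in Late relapse KP and 1473, 1649.8 and 1299 in 2nd relapse KP (limma adjusted p = 0.00539). The junction and polarity list held 7 higher and 17 lower of 36 tested (of 49 listed, median -0.17).

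Markers of gut, stomach and liver separated in both directions. Apob (ENSMUSG00000020609, chr12:7977648-8016835), the structural protein of liver and gut lipoproteins, had the largest log2 difference of the tested genes. It had normalised counts of 13399, 13512 and 17355 in Late relapse libraries and 242, 312 and 322 in 2nd relapse libraries, a 50.6-fold difference of means (log2 difference 4.33 ± 0.16 (SE), limma adjusted p = 5.01e-11). Tff2, a peptide of gastric mucus, had 799, 1520.3 and 2210.0 in Late relapse libraries and 0, 9.49 and 6 in 2nd relapse libraries. Agr2, a disulfide isomerase of mucus-secreting cells, had 918, 1609 and 1992 in Late relapse libraries and 27.6, 62 and 69 in 2nd relapse libraries. All 3 genes were lower in every 2nd relapse library than in any Late relapse library. Lgals2, a galectin of the gut, was lower in Late relapse tumours, with 4350.0, 3106 and 3914 in Late relapse KP and 21701, 22830.4 and 26705 in 2nd relapse KP. The airway mucin Muc5b had 132, 131 and 217 in Late relapse KP and 1915, 1737 and 1722 in 2nd relapse KP.

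The list of gut, gastric and liver genes held 10 higher and 16 lower of 29 tested (of 50 listed, median -0.28). Lung-lineage genes that passed the filter were divided as well, with 5 higher and 7 lower of 14 tested (of 28 listed, median -0.08). Sox2, a transcription factor of airway progenitors, had 1774, 1800.4 and 1841 in Late relapse tumours, against 572, 413 and 411 in 2nd relapse tumours. Aqp5, a water channel of lung and glands, had 681, 968 and 679.5 in Late relapse tumours, against 154, 93.3 and 113 in 2nd relapse tumours. For Sox2 and Aqp5 the Late relapse libraries were all above the 2nd relapse ones.

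The lowest genes of the comparison belonged to several families. Prl2c3 had 499, 337 and 255 in Late relapse tumours, against 9224, 9831 and 10228 in 2nd relapse tumours. Prl2c2 had 129.8, 116 and 92.2 in Late relapse KP and 4783, 4616 and 5292 in 2nd relapse KP. Both encode proliferins, secreted relatives of prolactin, and reads of these near-identical copies may be split uncertainly between them. Tm4sf4, a membrane protein of the transmembrane 4 L6 family, had 140.0, 163 and 171 in Late relapse tumours, against 6818, 5859 and 5214 in 2nd relapse tumours, a 37.7-fold lower mean (limma adjusted p = 1.27e-12). Anxa13, an annexin of gut epithelium, had 35, 35.7 and 31.8 in Late relapse KP and 2186, 2328 and 2666 in 2nd relapse KP. Piezo2, a mechanically gated ion channel, had 149, 100.2 and 178 in Late relapse libraries and 1997, 1993 and 1887 in 2nd relapse libraries. In all 5 genes the Late relapse libraries lay far below the 2nd relapse range. S100 and annexin genes held 4 higher and 10 lower of 19 tested (of 24 listed, median -0.40). Anxa1 had 7599, 8857 and 7559 in Late relapse KP and 17695, 18561 and 21415 in 2nd relapse KP. S100a14 had 144, 168 and 230.2 in Late relapse KP and 1098, 1314 and 939 in 2nd relapse KP.

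**Figure D3:**
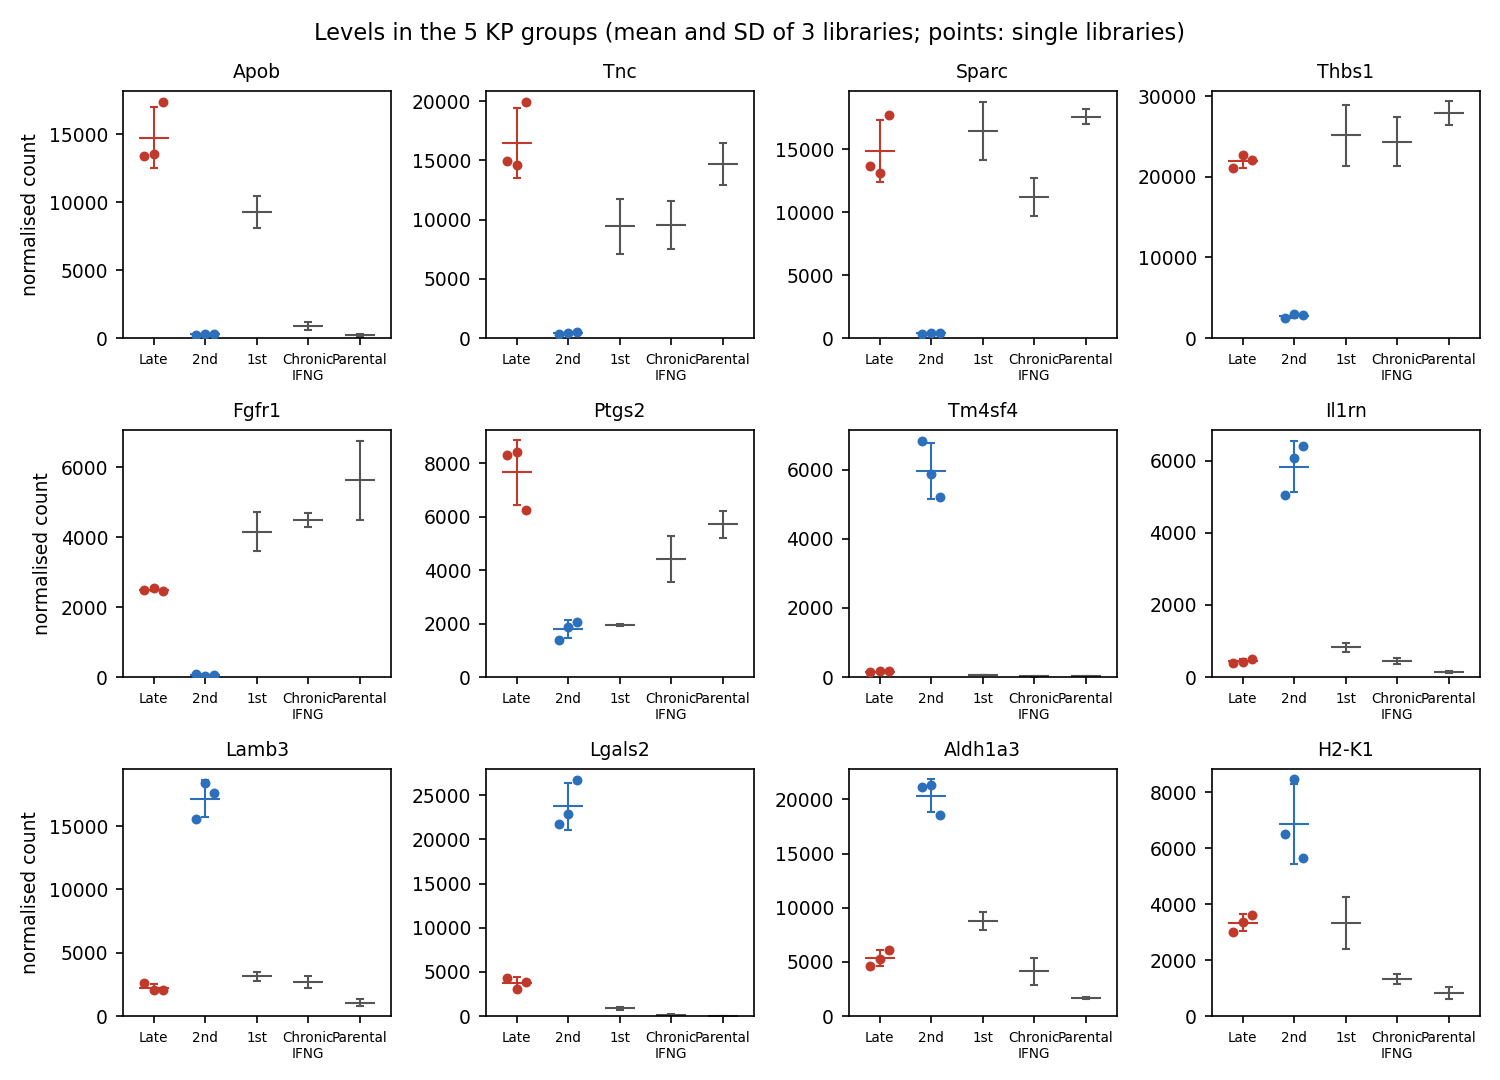
Normalised counts of 12 genes in the Late relapse, 2nd relapse, 1st relapse, chronic IFNG and parental KP groups (bars: mean and SD of 3 libraries, points: single libraries of the 2 groups compared). Apob, Tnc, Sparc, Thbs1, Fgfr1 and Ptgs2 are higher in Late relapse than in 2nd relapse KP, and Tm4sf4, Il1rn, Lamb3, Lgals2, Aldh1a3 and H2-K1 are lower.

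Interferon and antigen presentation genes included single differences in both directions. H2-K1, an MHC class I heavy chain, had normalised counts of 3017, 3371 and 3626 in Late relapse KP and 6514, 8464 and 5657 in 2nd relapse KP (log2 difference -0.92 ± 0.17 (SE), limma adjusted p = 0.000414). H2-D1, another classical heavy chain, had 2506, 2908 and 3024 in Late relapse libraries and 5508, 6148 and 4789 in 2nd relapse libraries. Both were lower in every Late relapse library, and reads of these related chains may be shared between them. B2m, the light chain common to all class I molecules, had 3042, 3729 and 3933 in Late relapse KP and 2487, 3325 and 1741 in 2nd relapse KP. It was called higher (0.45, limma adjusted p = 0.0154), but the groups overlapped. Without the third 2nd relapse library its difference was 0.26 (adjusted p = 0.0817) and without the third Late relapse library 0.39 (adjusted p = 0.0599), over a range of adjusted p of 0.000694 to 0.0817 among the alternatives.

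Transporter and immunoproteasome genes were not called. Tap1, a chain of the peptide transporter, had 30.5, 58.4 and 71.3 in Late relapse KP and 144, 228 and 51.4 in 2nd relapse KP. Psmb8, an immunoproteasome subunit, had 38.3, 57.8 and 42.8 in Late relapse libraries and 91.9, 150.1 and 56.7 in 2nd relapse libraries, with limma adjusted p of 0.0701 and 0.0949. In the 2nd relapse group the second library was the highest and the third the lowest for both genes. Both were called lower after quantile normalisation (adjusted p = 0.0387 and 0.0458) or without the third 2nd relapse library (0.00833 and 0.0401). Over all alternatives the adjusted p reached 0.306 for Tap1 and 0.35 for Psmb8. The class I and antigen processing list held 2 higher and 5 lower of 19 tested (of 29 listed, median -0.19). Those shares, 10.5% higher and 26.3% lower, lie below the 25.2% and 29.7% of all tested genes. Without the first Late relapse library its median was -0.12. Psmb9, Nlrc5 and Cxcl10 were under the filter. Cxcl10, a chemokine that attracts T cells, had 8.65, 12.7 and 15.4 in Late relapse libraries and 92.1, 66.7 and 23 in 2nd relapse libraries.

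Signalling genes of the IFNG pathway gave the same mixed picture. Jak2 had 3309.8, 3266 and 3567 in Late relapse tumours, against 5047, 5599 and 5707 in 2nd relapse tumours. It was lower in all 3 Late relapse libraries (limma adjusted p = 1.88e-07). Jak1 had 3299, 3305 and 3761 in Late relapse KP and 3199, 3089.5 and 3008 in 2nd relapse KP. Ifngr1, the ligand-binding receptor chain, had 1804, 2223 and 2371 in Late relapse libraries and 2519, 2324 and 2569.7 in 2nd relapse libraries. Neither gene was called (limma adjusted p = 0.0901 and 0.0607). Jak1 was called higher after quantile normalisation (0.23, adjusted p = 0.00362, range up to 0.339). Ifngr1 was called lower without the third Late relapse library (-0.24, adjusted p = 0.0192, range up to 0.305). Ifngr2 was called at -0.25 (limma adjusted p = 0.0367). That call was lost without the first or second 2nd relapse library or without the first or the third Late relapse library, with adjusted p of 0.0676 to 0.138. Irf1, an early IFNG target, had 916, 995 and 1012 in Late relapse libraries and 1044, 917 and 784 in 2nd relapse libraries and was not called, and its difference changed sign, to -0.01, without the third 2nd relapse library. Cd274, the gene of the T cell inhibitory ligand PD-L1, was under the filter, with 86.3, 81.9 and 78.5 in Late relapse KP and 66.9, 65.3 and 64.9 in 2nd relapse KP.

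Among targets, Irf7, a transcription factor of the antiviral response, had 51.1, 66.8 and 74.2 in Late relapse libraries and 445, 245 and 232 in 2nd relapse libraries. Ifit3, an antiviral effector, had 100.3, 57.5 and 71.7 in Late relapse KP and 502, 283 and 177 in 2nd relapse KP. Bst2, which tethers budding viruses, had 186, 205 and 204 in Late relapse libraries and 663, 504 and 388 in 2nd relapse libraries. The first 2nd relapse library was the highest of its group in all 3 genes. Ly6e fell by 1.22 on the log2 scale. Casp1, the inflammasome protease, was higher instead, with 119, 140.0 and 125 in Late relapse libraries and 19.6, 11.7 and 6.81 in 2nd relapse libraries. Upp1, a uridine phosphorylase, was also higher, with 3765, 3164 and 3291 in Late relapse tumours, against 1625, 1969 and 1846 in 2nd relapse tumours. The IFNG response list held 5 higher and 8 lower of 26 tested (of 47 listed, median -0.16), near the 25.2% and 29.7% of all genes. Its lower count was 4 without the first Late relapse library or the first 2nd relapse library, 5 without the second 2nd relapse library and 10 without the third. Its median was -0.09 without the first Late relapse library or the second 2nd relapse library and -0.24 without the third 2nd relapse library. The type I interferon list held 3 higher and 11 lower of 23 tested (of 50 listed, median -0.15), against 29.7% lower among all genes. Without the first 2nd relapse library its higher count was 5 and its lower count 9. Without the third Late relapse library its lower count was 14.

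Several cytokine and suppressive genes differed widely. Il1rn, the antagonist of the interleukin 1 receptor, had 399.9, 429 and 504 in Late relapse tumours, against 5043, 6068 and 6403 in 2nd relapse tumours, a 13.1-fold lower mean (limma adjusted p = 2.67e-11). Il33, an alarmin of epithelial nuclei, had 2998, 2469 and 2946 in Late relapse tumours, against 7904, 8081 and 7389 in 2nd relapse tumours. Both were lower in every Late relapse library. Csf1, the growth factor of macrophages, was higher, with 656, 808 and 667 in Late relapse KP and 57.1, 50 and 61.7 in 2nd relapse KP. Cxcl5, a neutrophil chemokine, had 596, 611 and 645 in Late relapse KP and 226, 174 and 166 in 2nd relapse KP. Both secreted factors were higher in every Late relapse library. Ptgs2, the inducible prostaglandin synthase COX-2, had 8295, 8431 and 6236 in Late relapse libraries and 1405, 1880.5 and 2057 in 2nd relapse libraries. Nt5e, the ectoenzyme CD73 that makes adenosine, had 2399.8, 2732 and 3066 in Late relapse KP and 5294, 6534 and 5928 in 2nd relapse KP. Ptgs2 and Nt5e moved in opposite directions within the list of checkpoint ligands and suppressive enzymes, which held 4 higher and 6 lower of 16 tested (of 25 listed, median -0.17). Those shares were 25% higher and 37.5% lower, beside 25.2% and 29.7% of all tested genes.

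Tnfrsf26, a mouse member of the TNF receptor superfamily, had 2389, 2169.5 and 2108 in Late relapse libraries and 68.5, 59.1 and 46 in 2nd relapse libraries. Cell death genes included lower Casp8, with 1317, 1217 and 1118 in Late relapse KP and 2307, 2078 and 1997 in 2nd relapse KP, the initiator caspase of the death receptor pathway. Bcl2l1, which encodes the survival protein Bcl-xL, had 2872, 2649.8 and 2700.2 in Late relapse KP and 1655, 1889 and 1931 in 2nd relapse KP, higher in all 3 Late relapse libraries. The death receptor and apoptosis list held 5 higher and 8 lower of 24 tested (of 26 listed, median 0.00), with 3 higher without the third Late relapse library. Its shares with all libraries, 20.8% higher and 33.3% lower, lie near the 25.2% and 29.7% of all tested genes. Cd53, a tetraspanin known from leukocytes, had 2719.9, 2708 and 2322 in Late relapse tumours, against 500.0, 590.2 and 588 in 2nd relapse tumours. It made up most of the summed leukocyte list, 120 ± 14.9 CPM in Late relapse KP and 28.5 ± 1.95 CPM in 2nd relapse KP. Ptprc, which defines leukocytes, stayed under the filter in both groups.

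Most tested genes of the hypoxia and sterol lists were lower in Late relapse tumours. The hypoxia and glycolysis list held 2 higher and 22 lower of 35 tested members (of 39 listed), with a median log2 difference of -0.27. Ndrg1, a hypoxia-induced gene, had 5312, 5348 and 7992 in Late relapse KP and 14129.8, 14532 and 15188 in 2nd relapse KP. Vegfa had 7835, 8094 and 9802 in Late relapse KP and 15114, 16648 and 15403 in 2nd relapse KP. Adm, which encodes the vasodilator adrenomedullin, fell by 0.79. Plin2, a coat protein of lipid droplets, was higher, with 9678, 9036 and 8799 in Late relapse KP and 4746, 4815 and 4443 in 2nd relapse KP. The lower count of this list was 17 after quantile normalisation and 20 to 26 when single libraries were left out.

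Sterol and fatty acid synthesis genes held 2 higher and 22 lower of 37 tested (of 37 listed, median -0.24). Sqle, the squalene epoxidase of cholesterol synthesis, had 2659, 2477 and 2648 in Late relapse KP and 7300.0, 7446 and 8522 in 2nd relapse KP. Hmgcs1, which makes the precursor of mevalonate, had 3325, 3231 and 3512 in Late relapse tumours, against 7269, 7535 and 9085 in 2nd relapse tumours. Fdft1, which makes squalene, had 1555, 1443 and 1531 in Late relapse libraries and 3071, 3134 and 3297 in 2nd relapse libraries. All 3 of these sterol enzymes were lower in Late relapse tumours with no overlap. The desaturase Scd2 had 22077, 20279 and 22409.8 in Late relapse libraries and 37092, 39887 and 42719 in 2nd relapse libraries. For Scd2, too, every Late relapse library was below every 2nd relapse library.

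Redox, iron and retinoid genes contained single large differences. Gsr, the glutathione reductase, had 5785, 6087 and 5741 in Late relapse KP and 18092, 18941 and 21204 in 2nd relapse KP. Ugdh, which makes the sugar donor for glucuronidation, had 6078, 5716 and 6671 in Late relapse libraries and 12059, 12641 and 13251 in 2nd relapse libraries. Gpx2, a glutathione peroxidase of epithelia, and the reductase Akr1c13 were higher, by 0.99 and 1.10 log2 units. NRF2 targets held 7 higher and 14 lower of 31 tested (of 39 listed, median -0.14). Trf, the iron carrier transferrin, had 3547, 3726 and 4181 in Late relapse KP and 16237, 17595 and 14514 in 2nd relapse KP, and the iron exporter Slc40a1 fell by 0.72. Iron and ferroptosis genes held 3 higher and 10 lower of 21 tested (of 24 listed, median -0.08). Aldh1a3, which makes retinoic acid, had 4623, 5291 and 6080.1 in Late relapse tumours, against 21111, 21303 and 18596 in 2nd relapse tumours. Dhrs3, which reduces retinal, had 351, 624 and 669.9 in Late relapse libraries and 1679, 1562 and 1412 in 2nd relapse libraries. Both retinoid genes were lower in each Late relapse library.

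Stress and immediate-early genes were lower in several members. Hspa1b, an inducible heat shock chaperone, had 729.8, 837 and 1351 in Late relapse KP and 7085, 7605 and 7246 in 2nd relapse KP. Its near copy Hspa1a had 329, 337 and 533 in Late relapse libraries and 2130.3, 2471 and 2428 in 2nd relapse libraries. Reads of these copies may be split uncertainly. Klf4, an immediate-early and epithelial transcription factor, was higher, with 1159.8, 1522 and 1307 in Late relapse tumours, against 456, 572 and 700.1 in 2nd relapse tumours. The AP-1 and immediate-early list, which includes heat shock genes, held 3 higher and 13 lower of 27 tested (of 27 listed, median -0.33). Without the third 2nd relapse library its median was -0.17. Atf4, the effector of the integrated stress response, had 4403, 4069 and 4862 in Late relapse libraries and 10449, 10593 and 11119 in 2nd relapse libraries. Its target Asns had 776, 627 and 589.9 in Late relapse KP and 1207, 1461 and 1163 in 2nd relapse KP. Phgdh, the entry enzyme of serine synthesis, was higher instead, with 13212, 11162 and 11894 in Late relapse libraries and 5749.9, 5852 and 5825 in 2nd relapse libraries. The unfolded protein and integrated stress response list held 3 higher and 11 lower of 30 tested (of 30 listed, median -0.10). Those shares were 10% higher and 36.7% lower, beside 25.2% and 29.7% of all tested genes.

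Growth-related lists were lower more often than higher. Myc (chr15:61985391-61990374) had 1793, 1768 and 1628 in Late relapse KP and 2874, 2998 and 3052 in 2nd relapse KP, and the MYC and target list held 3 higher and 19 lower of 33 tested (of 34 listed, median -0.22). Among the targets, the nucleolar gene Ncl had 6776, 5561 and 5154 in Late relapse KP and 10209.9, 10027 and 10246 in 2nd relapse KP. The chaperone gene Hspd1 had 8946, 8187 and 6833 in Late relapse tumours, against 14638, 14265 and 14726 in 2nd relapse tumours. Myc, Ncl and Hspd1 were lower in every Late relapse library. Cytosolic ribosomal protein genes held 2 higher and 28 lower of 52 tested (of 52 listed, median -0.20), with Rpl8 at 23827, 22130.2 and 24388 in Late relapse tumours, against 59154, 54794 and 55035 in 2nd relapse tumours. That list depended on scaling: after quantile normalisation it had 6 higher and 16 lower members and a median of -0.01. The respiratory chain list, with 5 higher and 17 lower of 42 tested (of 42 listed, median -0.08), likewise had 9 higher and 15 lower members and a median of 0.01 after that scaling, and 3 higher members without the second Late relapse library or the second 2nd relapse library. Replication-dependent histones held 0 higher and 22 lower of 26 tested (of 27 listed, median -0.36), and Hist1h1c had 2362, 2375 and 2608 in Late relapse tumours, against 4365, 3288 and 4509 in 2nd relapse tumours. Histone genes are near-identical to each other, and their transcripts without poly(A) tails are kept in total RNA libraries. Hist1 genes are also neighbours on chromosome 13. The merged region chr13:21387003-24842153 there held 62 tested genes, of which 47 were lower and 2 higher, with a median of -0.31. The histone count is therefore not one of separate genes, and a part of position in it was not tested.

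Cell cycle lists moved less. DNA replication and G1/S genes held 6 higher and 11 lower of 41 tested (of 42 listed, median -0.03). Those shares, 14.6% higher and 26.8% lower, lie below the 25.2% and 29.7% of all tested genes. Rrm2, a subunit of ribonucleotide reductase, had 1614, 1287 and 1194 in Late relapse tumours, against 2564, 2434 and 2920.2 in 2nd relapse tumours. The helicase gene Mcm6 had 2129.8, 2130.2 and 1935 in Late relapse KP and 3895, 3283 and 3772 in 2nd relapse KP. E2f1, the transcription factor of S phase entry, was higher, with 514, 469.7 and 469.9 in Late relapse KP and 246, 221 and 248 in 2nd relapse KP. Mitosis and spindle genes held 11 higher and 5 lower of 41 tested (of 41 listed, median 0.07). Their share of higher genes, 26.8%, lies near the 25.2% of all tested genes, and that of lower genes, 12.2%, below the 29.7%. The lower count was 3 in each fit without the second or the third Late relapse library or without the first or the third 2nd relapse library. The checkpoint kinase gene Bub1 had 1355, 1082 and 998 in Late relapse KP and 709, 639 and 663 in 2nd relapse KP. Ube2c, which marks mitotic proteins for degradation, had 1355, 1014 and 1015 in Late relapse tumours, against 685, 705 and 697 in 2nd relapse tumours. Kif11, a spindle motor, fell by 0.43.

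**Figure D4:**
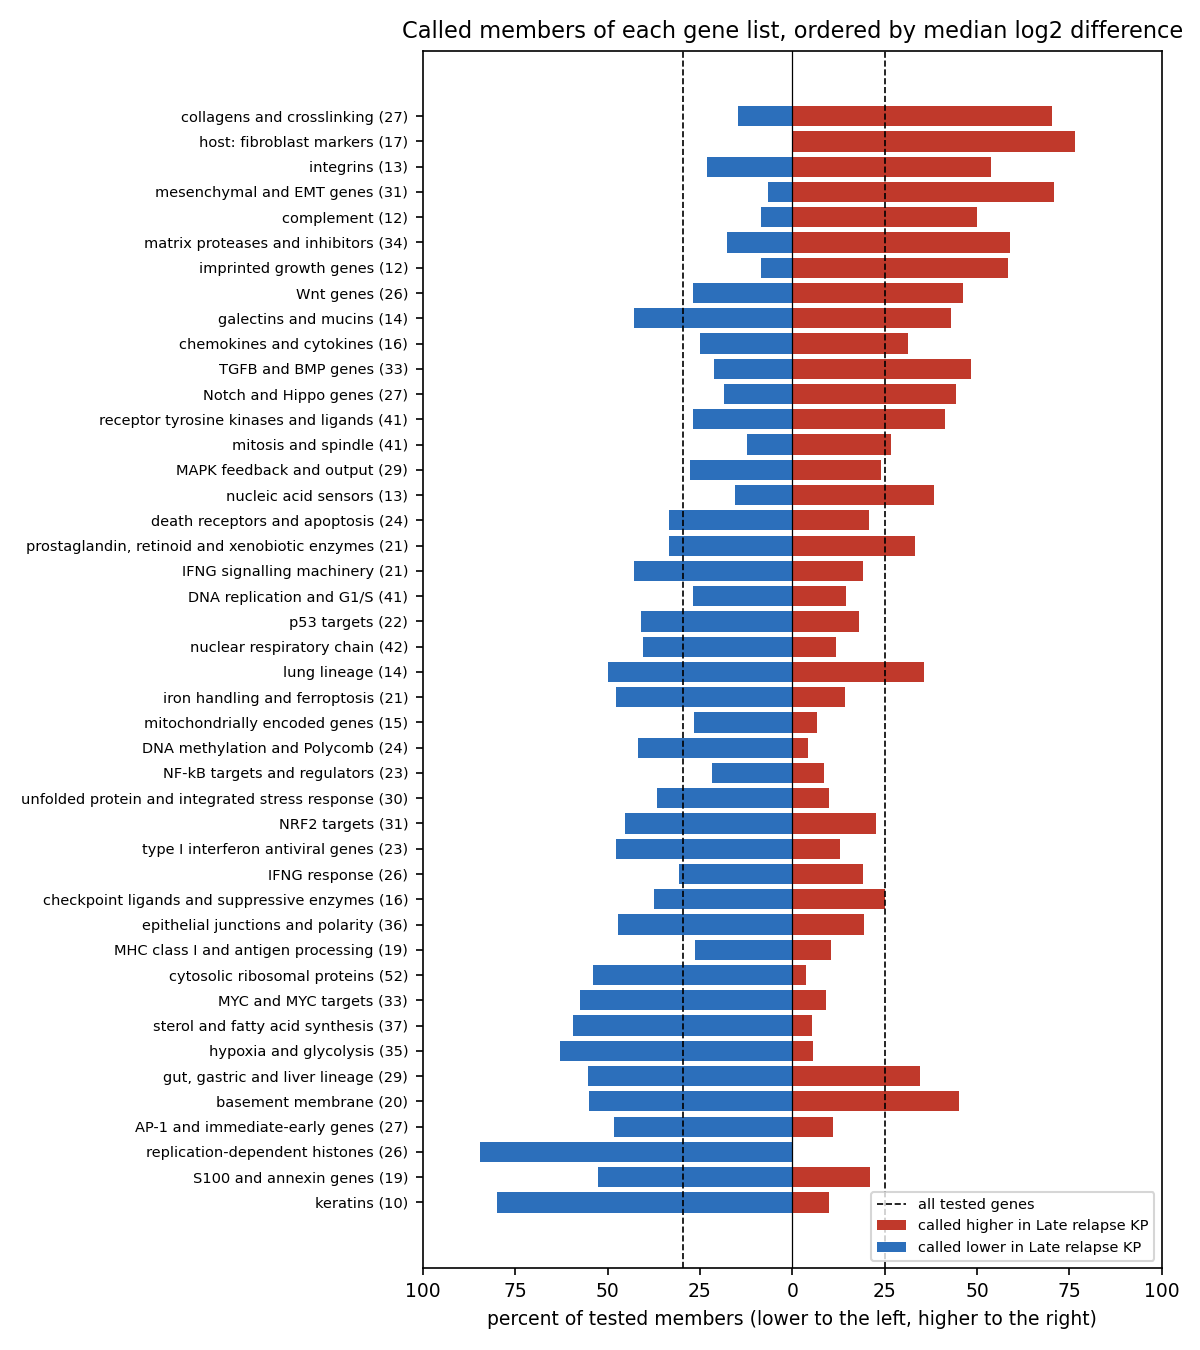
Percent of tested members called higher (right, red) and lower (left, blue) in Late relapse KP for each gene list with 10 or more tested members, ordered by median log2 difference, with the number tested in brackets. Dashed lines mark 25.2% higher and 29.7% lower over all tested genes. Collagens (median 1.00) stand at the top and keratins (-0.54) at the bottom.

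Lower calls were most frequent on chromosomes 19, 1 and 15. A stretch of chromosome 15, GRCm38 chr15:3268547-81476369, from Selenop to Rbx1, held 280 tested genes, of which 231 (82.5%) were lower and 19 higher in Late relapse tumours. The limits of the stretch were set from these calls, so its counts are a description and carry no test. The median log2 difference over it was -0.57, and a gene's mean in Late relapse KP was typically 0.549 times that in 2nd relapse KP. The 189 tested genes on the rest of chromosome 15 had a median of 0.02. Relative to the mean of the 6 libraries, the stretch had medians of -0.28, -0.30 and -0.26 in the Late relapse libraries, against 0.30, 0.28 and 0.28 in the 2nd relapse libraries. Against parental tumours its median was -0.01 in Late relapse KP and 0.54 in 2nd relapse KP. It was -0.07 in 1st relapse and -0.03 in chronic IFNG tumours.

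Many of the genes described above lie in that stretch. Myc, Sqle, Atf4, Ndrg1, Ly6e, Rpl8, Anxa13 and Lgals2 all do, as do Rpl3 and Cyc1. Rpl3, which encodes a core ribosomal protein, had 25546, 25024 and 25464 in Late relapse libraries and 42898, 41130.2 and 40828 in 2nd relapse libraries. Cyc1, which encodes cytochrome c1, had 1679.9, 1569.9 and 1682 in Late relapse KP and 3311, 3541 and 3195 in 2nd relapse KP. Sema5a, 2.42 log2 units higher, lies there too. It holds only 2 of 33 tested members of the MYC list, 1 of 37 sterol, 1 of 35 hypoxia and 3 of 52 ribosomal protein members. Leaving it out could therefore move the medians of those lists only a little. Without the stretch they were -0.22, -0.24, -0.27 and -0.16 in that order. Members on other chromosomes with frequent lower calls were not left out, so a part of position in these lists was not tested. Outside the stretch 5898 genes were called, 2800 higher and 3098 lower.

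Most tested genes of chromosomes 1 and 19 were lower as well. So were those of chromosome 13 (54.0%, median -0.17) and chromosome 14 (50.5%, median -0.15). Chromosomes 8, 6 and 17 had 47.2, 46.4 and 42.9% lower, beside 29.7% of all tested genes. On chromosome 1, 67.7% of 671 tested genes were called lower, with a median of -0.28, and on chromosome 19, 70.0% of 406 genes, with a median of -0.26. Casp8, Ncl, Mcm6 and Lamb3 are on chromosome 1, and Jak2, Ifit3, Il33, Anxa1 and Scd2 on chromosome 19. Against parental tumours the medians of chromosome 1 were -0.08 in Late relapse KP and 0.19 in 2nd relapse KP, and those of chromosome 19 were 0.03 and 0.28 in the same order of groups. Some of the most raised genes, among them Col3a1, Ddr2, Map2 and Ptgs2, also lie on chromosome 1.

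Higher calls were most frequent on chromosome X and chromosome 2. On X, 50.2% of 329 genes were called higher. The region GRCm38 chrX:6399854-70477180, from Shroom4 to Tmem185a, held 115 tested genes, of which 97 were higher and 4 lower, with a median of 0.31. Against parental tumours its median was -0.18 in Late relapse KP and -0.48 in 2nd relapse KP. Xist, the RNA that silences an X chromosome in female cells, had 12884, 10540.2 and 14199 in Late relapse tumours, against 18140.4, 19157 and 17952 in 2nd relapse tumours. On chromosome 2, 48.5% of 901 genes were higher, with a median of 0.14. Windows of 20 neighbouring tested genes with at least 14 called in the same direction numbered 340 higher and 1149 lower of 10796, and they merged into 49 regions. Regions set by those windows are likewise a description.

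**Figure D5:**
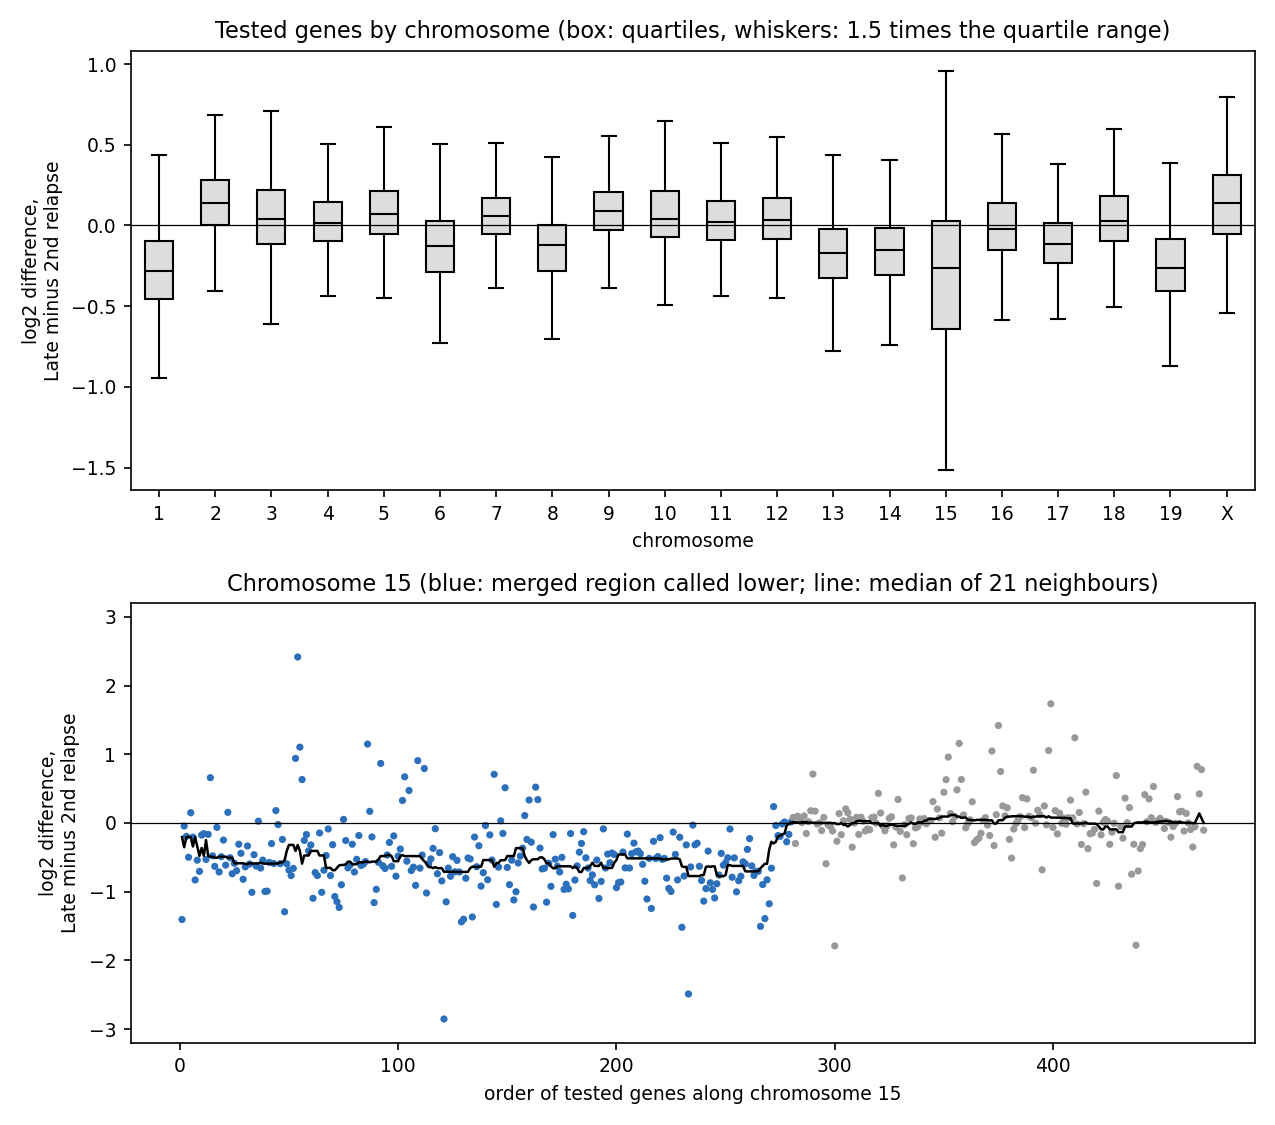
Top, log2 difference (Late relapse minus 2nd relapse KP) of tested genes by chromosome, as quartile boxes. Bottom, the same difference for the 469 tested genes of chromosome 15 in gene order, with the region called lower in blue and a running median. The median is -0.57 in the blue region and 0.02 in the rest.

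The other KP groups place the differences. Of the 201 called genes that were at least 1 log2 unit higher in Late relapse tumours, the 2nd relapse mean was the lowest of the 5 KP groups in 182 (90.5%), and the Late relapse group had the highest in 80 (39.8%). Of the 141 lower genes, the 2nd relapse group had the highest mean in 137 (97.2%), and the Late relapse group the lowest in 42 (29.8%). Those shares have no test. The genes were picked by the gap between Late relapse and 2nd relapse KP. That choice by itself moves both means towards the ends of the ranking, so the shares have no baseline. Thbs1 is an example of the higher genes. Its means were 21976 in Late relapse, 2782 in 2nd relapse, 25162 in 1st relapse, 24388 in chronic IFNG and 27931 in parental KP tumours. Tm4sf4 is its mirror image, with 158, 5964, 48.8, 22.6 and 22 in that order of groups.

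Over all 6148 called genes, the parental mean was nearer the Late relapse mean in 4141 (67.4%) and nearer the 2nd relapse mean in 2007. Apob departed from that pattern. It was high in Late relapse and 1st relapse tumours, with means of 14755 in Late relapse, 292 in 2nd relapse, 9282 in 1st relapse, 864 in chronic IFNG and 193 in parental KP. H2-K1 had a parental mean below both, at 826, against 3338 in Late relapse and 6878 in 2nd relapse KP. Mrc1, a mannose receptor known from macrophages and endothelium, had means of 5198 in Late relapse and 6879 in 2nd relapse KP, and 1629.7 in parental KP. It was not called between Late relapse and 2nd relapse KP (-0.39, limma adjusted p = 0.0885). It was called lower with those groups alone (adjusted p = 0.0385), with array weights (0.0321) and without the first Late relapse library (-0.52, 0.0403). Without the second Late relapse library its difference was -0.23 (adjusted p = 0.33). Mrc1 carried most of the summed macrophage list, which was 277 ± 57.5 CPM in Late relapse KP and 338 ± 17.6 CPM in 2nd relapse KP (SD, n = 3 each), with 1 higher and 1 lower of 3 tested genes. Other macrophage genes went both ways. Cd14, a co-receptor for lipopolysaccharide, fell by 0.73 on the log2 scale. Lyz2, a lysozyme of macrophages and of lung epithelium, was higher, with 427, 184 and 216 in Late relapse KP and 36.1, 38.5 and 18.7 in 2nd relapse KP. Csf1r, the receptor that defines macrophages, was under the filter, with 49.4 ± 7.23 in Late relapse KP and 20.6 ± 8.67 in 2nd relapse KP. Adgre1, which encodes F4/80, was also under it, with 8.81 ± 2.15 in Late relapse KP and 1.27 ± 0.462 in 2nd relapse KP.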

How the data were processed

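The authors deposited log2 values for 15 KP libraries in a table named as variance-stabilised. Per the submitters' processing notes, GRCm38, DESeq2 1.34.0, Salmon 1.8.0 and cutadapt 2.9 were used, in roles not given in the sources used here. Normalised counts were calculated back from the deposited log2 values, taking the lowest, 8.17, as a count of 0, a step that the labels do not describe. Within 0.15 of a whole number, 66.1 to 76.7% of the recovered counts of the 6 libraries were whole. Depth, between 20.6 and 32.9 M fragments, is an estimate from that calculation. The LLC1 table was not used, and some genes are not reported here.

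Symbols and GRCm38 coordinates came from GENCODE, matched for 35955 of 36040 gene identifiers. Genes were kept where at least 1 KP group mean was 1 log2 unit above the lowest value, which left 11193 genes with 99.0% of the counts. The contrast was fitted in limma 3.58.1 (R 4.3.3) with an intensity trend on all 15 KP libraries, with Benjamini-Hochberg adjustment over the kept genes. Summaries and plots used Python 3.11.15. In simulated data with 200 changed genes of 11193, the fit recovered 47.8, 88.1 and 100% of changes of 0.25, 0.5 and 1 log2 unit, with 1 false call. The simulation drew independent normal noise for each gene and changed far fewer genes than the 6148 called. Its rates may therefore not hold for the real data.

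Genes were named if they were among the 15 highest or 15 lowest called genes, among the 4 largest differences of a list, or members of the IFNG, label-check or regional sets. The comparison and the gene lists were chosen with earlier results of these data known. Marker genes of fibroblasts were named in addition after their values were seen. Replicate libraries of a group differed by more than sampling noise, with median chi-square values per gene of 2.14 to 4.43 against 0.455. Alternatives changed the scale, filter, normalisation, model and libraries.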

Additional observations from a re-analysis of the deposited data

How the results depend on the processing

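Directions held for most results, and counts depended mainly on the filter and scale. Leaving out single libraries gave 5496 to 5765 called genes, 2490 to 2684 higher, 3006 to 3107 lower and 345 to 367 of at least 1 log2 unit. The stricter filter of 3 log2 units tested fewer genes and called 2188 (831 higher, 1357 lower), 188 of them by 1 log2 unit or more. On log2 of normalised counts plus 10, which stretches low counts, 1228 called genes differed by 1 log2 unit or more, against 342. Quantile normalisation called 3071 higher and 3054 lower genes, and median centring 3038 and 3137. Without a filter 7122 genes were called. Outside the chromosome 15 stretch, a set chosen after seeing the data, 5898 of the main calls remained, 307 of them by 1 log2 unit or more. That count only takes the calls of the stretch out of the main fit, without a new fit, so it does not show dependence on the processing. Same-numbered Late relapse and 2nd relapse libraries deviated with correlations of -0.12, -0.08 and -0.13. With 3 libraries per group such correlations cannot show whether the numbers pair the samples. With the replicate block 5109 genes were called in the fit of 2 groups (5010 shared with the fit without it) and 6050 in the fit of 5 groups (5975 shared). Of 202 named genes, 22 changed their call or sign in at least 1 alternative. Of the 189 called, 10 lost the call in at least 1 fit without a library. Uncalled differences changed sign for Notch3 (-0.017 after quantile normalisation, -0.020 to 0.045 without single libraries), Bpgm (-0.025 to 0.098 without single libraries) and Irf1 (-0.0055 to 0.13 without single libraries). The causes were not tested. Depth limits genes near the filter, where the deposited scale compresses differences.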

Other observations

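Further lists differed between Late relapse and 2nd relapse KP tumours to varying degrees, beside 25.2% higher and 29.7% lower among all tested genes. Imprinted growth genes held 7 higher and 1 lower of 12 tested (of 24 listed, median 0.29). H19, a maternally expressed non-coding RNA, had normalised counts of 344, 1001 and 424 in Late relapse tumours, against 10.7, 11.9 and 9.3 in 2nd relapse tumours. Rian, a non-coding RNA of the Dlk1 and Meg3 domain, had 102, 93.6 and 341 in Late relapse tumours, against 22.7, 46.6 and 30.4 in 2nd relapse tumours, with the third Late relapse library far above the other two. Without that library its log2 difference was 0.35, against 0.57 with all libraries. Kcnq1ot1, the antisense RNA of another imprinted domain, was lower, with 2172, 1754 and 1880.5 in Late relapse libraries and 2780.3, 3321 and 3123 in 2nd relapse libraries. Complement genes held 6 higher and 1 lower of 12 tested (of 20 listed, median 0.42), with a median of 0.22 without the third Late relapse library. C4b had 284, 481 and 1098 in Late relapse tumours, against 34.2, 66.9 and 26.7 in 2nd relapse tumours. It was highest in the third Late relapse library, as the fibroblast markers were. Masp1, a protease of the lectin pathway, had 195, 213 and 239 in Late relapse KP and 9.42, 12.4 and 8.47 in 2nd relapse KP, even across the Late relapse libraries.

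Sensors of nucleic acids held 5 higher and 2 lower of 13 tested (of 23 listed, median 0.00). Aim2, a sensor of cytosolic DNA, had 1697, 1684 and 1507 in Late relapse libraries and 944, 923 and 919 in 2nd relapse libraries. Tmem173, which encodes STING, had 508, 493 and 439 in Late relapse KP and 303, 289 and 279 in 2nd relapse KP. Both were higher in every Late relapse library. Of MHC class II genes only 3 of 13 listed passed the filter. Cd74, the invariant chain, had 125, 151 and 179 in Late relapse tumours, against 30.1, 63.1 and 16.2 in 2nd relapse tumours. Its call (limma adjusted p = 0.0257) was lost without the first or the third 2nd relapse library or without the second or the third Late relapse library, with adjusted p of 0.0563 to 0.0908. Targets of p53 held 4 higher and 9 lower of 22 tested (of 26 listed, median -0.04), with Cdkn1a at 302, 251 and 358 in Late relapse libraries and 491, 571 and 601 in 2nd relapse libraries. DNA methylation and Polycomb genes held 1 higher and 10 lower of 24 tested (of 27 listed, median -0.09), with the demethylase Tet2 at 2835, 2809.6 and 3146 in Late relapse KP and 4444, 5022 and 4204 in 2nd relapse KP. NF-kB targets held 2 higher and 5 lower of 23 tested (of 29 listed, median -0.10), shares of 8.7% and 21.7% that lie below those of all genes. Their higher count was 4 without the first Late relapse library, and their median was -0.05 without the second Late relapse library and -0.06 without the third 2nd relapse library. MAPK feedback genes held 7 higher and 8 lower of 29 tested (of 30 listed, median 0.03), shares of 24.1% and 27.6% that lie near those of all genes. Without the first 2nd relapse library 3 were higher and the median was -0.02. The median was -0.01 without the first Late relapse library, and 0.11 without the third. After quantile normalisation 11 were higher and 5 lower.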
